A study of Mus musculus with 4 samples.

Results

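The clustered protocadherins were examined in 4 samples of hippocampal RNA, 2 from wild-type (WT) and 2 from *Lsd1* knock-in (KI) mice. By symbol and position, 57 protein-coding genes of the alpha, beta and gamma clusters on mouse chromosome 18 were members (14 alpha, 22 beta and 21 gamma). In all, 26328 genes were listed in at least 1 sample, and 24 of the 57 members were among them. All mice were male and C57BL/6. In KI mice, the serine of the histone demethylase LSD1 that protein kinase C alpha phosphorylates is replaced by alanine. WT mice were littermates with no stated treatment, and an age of 8 to 15 weeks was given for the behavioural cohort only. Nothing stated which KI and WT samples shared a litter. The age of the sequenced animals, and whether each sample was 1 animal or a pool, were not given in the sources used here. Any p-value below therefore measures the spread between these 4 samples only.

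Clustered protocadherins are cell-surface adhesion proteins of the cadherin superfamily. Each neuron makes a small set of them, chosen from many alternative promoters, and the set it displays is matched between membranes of the same identity. This gives neurites of a cell a label by which they avoid one another, and it also shapes dendrites and synapses. In the alpha and gamma clusters, each variable first exon encodes the extracellular and membrane-spanning part and is spliced to constant exons that encode a shared cytoplasmic end. Beta genes have no constant exons and encode the protein in 1 exon. Promoter choice is known to depend on CTCF and cohesin, and DNA methylation and histone methylation keep unused promoters silent.

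In the GRCm38 build, the 3 clusters lie one after another on chromosome 18. Alpha spans 36930184 to 37187661, beta 37264938 to 37524479 and gamma 37661793 to 37841873. In the later gene models of GENCODE M21, all 14 alpha members share 3 exonic stretches with 2860 bp in total, and all 21 gamma members share 3 stretches with 2116 bp. Of the 22 beta members, 20 have a single exon and no base is common to all of them. These shared exons decide what the files can say about each cluster.

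All 22 beta genes were listed under their own identifiers. Alpha and gamma were each listed under 1 identifier, ENSMUSG00000007440 for alpha and ENSMUSG00000023036 for gamma. M21 calls them Pcdha11 and Pcdhgc4, but the reads fell on far more sequence than these single genes. The alpha values became whole read numbers at an exon length of 24670 bp, against 5359 bp for the M21 gene of that identifier. The gamma values became whole at 26094 bp, against 5596 bp. These values thus cover several isoforms and are called the Pcdha locus and the Pcdhg locus here. The 33 members without a value were Pcdha1 to Pcdha9, a second Pcdha11 identifier, Pcdha12, Pcdhac1 and Pcdhac2, and 20 gamma members, among them Pcdhgc3 and Pcdhgc5. Their identifiers are all numbered above the highest one in any file, so they came after the annotation used for counting. Their absence was not read as lack of expression, and single alpha or gamma isoforms, the C-type ones included, were not analysed here. Counting them as 0 would leave every sum below unchanged.

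The hippocampal libraries held between 8827967 (WT replicate 2) and 14949756 (KI replicate 2) mapped reads, so WT replicate 2 gave the least precise values. Transcripts of *Kdm1a*, which encodes LSD1, stood at 11.6 and 11.18 RPKM (reads divided by exon length in kb and by the mapped reads of the library in units of 1000000 reads) in WT and 10.97 and 11.17 RPKM in KI. An amino acid exchange is not read by a gene's level, so *Kdm1a* does not check the genotype. Neuron and hippocampal neuron markers were abundant in all samples, with hippocampal marker sums of 284, 286, 259 and 280 RPKM in WT 1, WT 2, KI 1 and KI 2. KI replicate 1 stood apart in its choroid plexus markers, whose 5 genes summed to 60.5 RPKM against 14.2 to 19.8 RPKM in the other samples. *Ttr*, which encodes the carrier protein transthyretin, reached 51.3 RPKM there and made up most of that sum. Among these markers, *Kl* was higher in both KI samples (7.05 and 6.72 RPKM against 4.87 and 5.14 RPKM in WT), as was the low gene *Otx2*. The groups overlapped for *Ttr*, *Folr1* and *Clic6*. The oligodendrocyte marker sum was also highest in KI replicate 1 (845 RPKM against 677, 785 and 644 RPKM in WT 1, WT 2 and KI 2). Of the hippocampal markers, *Wfs1* was lowest there (28.6 RPKM against 41.2 to 50.9 RPKM) and *Neurod6* highest (129 RPKM against 114 to 117 RPKM). Neocortex markers also summed higher in both KI samples (21.2 and 20.7 RPKM) than in WT (16.1 and 17.5 RPKM), with all 3 genes higher. Of the 3 thalamus markers, *Prkcd* was higher in both KI samples (12.4 and 9.07 against 7.88 and 6.48 RPKM), *Tcf7l2* was lower in both and *Rora* overlapped. Of 8 hippocampal markers, the granule cell markers *Prox1*, *Dsp* and *C1ql2* were lower in both KI samples, and 0 were higher in both. By limma voom, the second fit below, these 3 were called lower (voom adjusted p = 0.0033, 0.0061 and 0.012). It also called 2 neocortex markers, *Prkcd*, *Kl* and the endothelial *Pecam1* higher. Striatum markers summed to 16.4 RPKM in both KI samples against 14.6 and 14.2 RPKM in WT, with *Drd1* overlapping. Whether tissue content bears on the protocadherin differences was not tested. In bulk tissue, fewer cells of a type and less RNA per cell cannot be told apart.

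All 3 clusters were transcribed in every hippocampal sample. The Pcdha locus stood at 7.26 and 6.84 RPKM in WT and 6.87 and 6.85 RPKM in KI. The 22 beta genes summed to 38.1 and 41.9 RPKM in WT and 34.2 and 38.3 RPKM in KI. The Pcdhg locus stood at 25.4 and 24.996 RPKM in WT and 23.8 and 24.5 RPKM in KI. The groups overlapped for alpha and beta, while both KI samples lay below both WT samples for gamma.

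**Figure D1:**
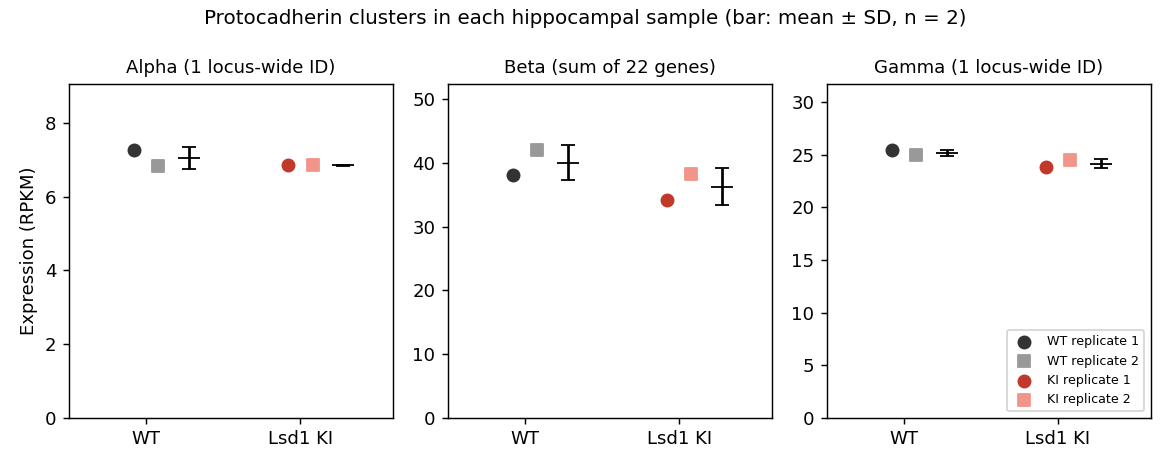
Expression in RPKM (vertical axis, from 0) of the alpha locus, the sum of 22 beta genes and the gamma locus in WT and KI samples; points are samples and the bar beside them is the mean ± SD (n = 2). The beta panel shows the widest spread between replicates, and only in gamma do both KI points lie under both WT points.

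The gamma cluster gave most of the reads. Per 1000000 mapped reads, a scale without length, gamma held 622 to 663 reads, alpha 169 to 179 and beta 117 to 144 over the 4 samples. Gamma thus took 67.6% to 68.5% of the reads on the clusters, alpha 17.5% to 18.7% and beta 12.9% to 14.9%. These ranges did not overlap. RPKM ranks the clusters otherwise, since the alpha and gamma reads were divided by exons of many isoforms, of which a transcript holds only a few. When the same reads were divided by the median length of a single M21 member, alpha came to 31.5 to 33.4 RPKM and gamma to 127 to 136 RPKM, beside 34.2 to 41.9 RPKM for the beta sum. Alpha and beta were then near each other, and gamma was above both. The beta sum kept its deposited lengths, which in 6 genes are over 10% shorter than in M21. Dividing by M21 lengths would lower those genes, so the order of alpha and beta was not settled.

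Between genotypes, no cluster sum passed a test, and 4 samples could not have let one pass. The mean ± SD (n = 2) of the Pcdha locus was 7.05 ± 0.30 RPKM for WT against 6.86 ± 0.012 RPKM for KI, and the log2 ratio was -0.04 (exact two-sided permutation test, p = 1). For the beta sum it was 40.0 ± 2.7 RPKM for WT against 36.2 ± 2.9 RPKM for KI, and the log2 ratio was -0.14 (exact permutation, p = 0.667). For the Pcdhg locus it was 25.2 ± 0.30 RPKM for WT against 24.2 ± 0.44 RPKM for KI, and the log2 ratio was -0.06 (exact permutation, p = 0.3333). The smallest p this test allows with 2 samples against 2 is 0.3333, and after adjustment over the 3 sums each p was 1. The beta ratio rested on single samples. It was -0.06 without KI replicate 1 and -0.07 without WT replicate 2, and -0.23 without KI replicate 2. The direction of alpha turned without WT replicate 1 (log2 ratio 0.004).

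The beta genes spanned a wide range of levels. *Pcdhb17* had the highest mean, with 4.81 and 5.58 RPKM in WT and 4.42 and 4.69 RPKM in KI. *Pcdhb9* followed with 3.98 and 4.93 RPKM in WT and 4.37 and 4.01 RPKM in KI. *Pcdhb20* was next, at 3.21 and 3.14 RPKM in WT and 2.56 and 3.45 RPKM in KI. They were the top 3 beta genes in all 4 samples, in this order, though in KI replicate 1 *Pcdhb20* was level with *Pcdhb12* (2.56 and 2.54 RPKM). Together they held 31.5% to 33.2% of the beta RPKM. The top 11 genes held 74.6% to 76.9%.

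The middle of the order was close. Below the top 3 came *Pcdhb12*, *Pcdhb7*, *Pcdhb22* and *Pcdhb14*, with means of 2.65, 2.61, 2.45 and 2.15 RPKM. Then came *Pcdhb5*, *Pcdhb3*, *Pcdhb13*, *Pcdhb10*, *Pcdhb18*, *Pcdhb11*, *Pcdhb8*, *Pcdhb6* and *Pcdhb15*, from 1.90 down to 1.03 RPKM. *Pcdhb19*, *Pcdhb16*, *Pcdhb2* and *Pcdhb4* lay between 0.865 and 0.659 RPKM. In all, 16 of the 22 beta genes averaged at least 1 RPKM and 7 at least 2 RPKM, and the median was 1.35 RPKM. The highest gene stood 3.62 times above that median. Of the 21 pairs of neighbours in this order, 19 had sample ranges that overlapped, so the exact ranks within the middle were not separated.

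The lowest beta genes were *Pcdhb21* and *Pcdhb1*. *Pcdhb21* had 0.352 and 0.486 RPKM in WT and 0.373 and 0.258 RPKM in KI. *Pcdhb1*, the first gene of the cluster, had 2 reads in WT replicate 1, 0 in WT replicate 2 and 1 in either KI sample. Its value of 0 in WT replicate 2 allows up to 0.138 RPKM (3 reads, a limit for counting error only), which is above its level in the other samples. Neither gene passed the expression filter of 0.5 RPKM in 2 samples.

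Rank also depends on the exon length by which the reads are divided. In 16 of the 22 beta genes, the exon length behind the RPKM was within 10% of the M21 length, and in the other 6 it was shorter. *Pcdhb14* was counted over 3438 bp where M21 has 8695 bp, and *Pcdhb22* over 3067 bp where M21 has 6609 bp. *Pcdhb17* was counted over 3269 bp where M21 has 4660 bp. Divided by the M21 lengths, *Pcdhb9* (4.32 RPKM) would stand above *Pcdhb17* (3.42 RPKM). *Pcdhb20* would keep its rank by mean, but would lie below *Pcdhb12* in KI replicate 1 (2.44 against 2.54 RPKM) and just below *Pcdhb7* in WT replicate 2 (2.99 against 3.009 RPKM). On the same lengths *Pcdhb14* would move from rank 7 to rank 15, and *Pcdhb22* from rank 6 to rank 11. The reads were kept as counted, so reads on the added M21 sequence are missing and the 6 shorter genes could only fall. A new count over the M21 exons may give another order. A change of length leaves the ratio between genotypes as it is.

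Beta genes are similar in sequence, and the files hold only uniquely mapped pairs. In 18 of the 22 genes, every window of one read's length in the longest M21 transcript was absent from all other genes' transcripts. The lowest share of such windows was 93.3%, in *Pcdhb21*, whose other windows occur in *Pcdhb22*. These neighbours overlap in M21 (*Pcdhb21* at 37513621 to 37518325 and *Pcdhb22* at 37517871 to 37524479), so reads in the overlap could belong to either gene. In *Pcdhb6* and *Pcdhb10* the shared windows came to less than 1%. The share of windows was counted without mismatches.

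**Figure D2:**
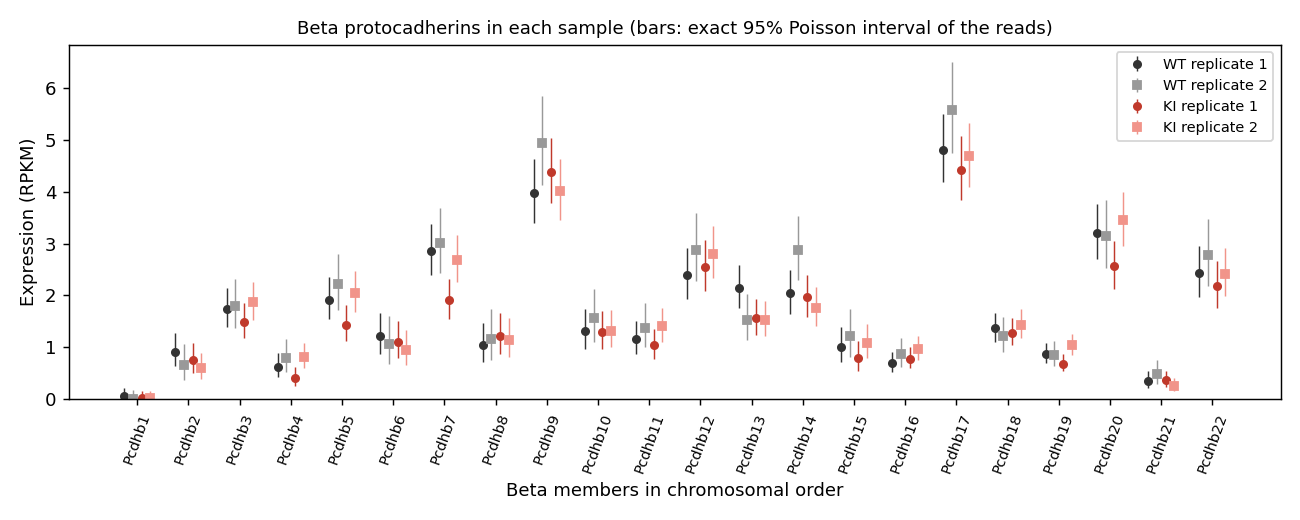
RPKM (vertical axis, from 0) of the 22 beta genes in chromosomal order, 1 point per sample; bars are exact 95% Poisson intervals of the reads and cover counting error only. *Pcdhb17* and *Pcdhb9* stand above the others in all 4 samples, *Pcdhb20* meets *Pcdhb12* in KI replicate 1, *Pcdhb1* lies at the floor, and the bars of the 2 replicates of a genotype overlap in every gene.

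Position along the cluster showed no steep gradient. The first 11 beta genes by position summed to 15.05 to 18.5 RPKM and the last 11 to 19.1 to 23.4 RPKM over the samples. High and low genes stood side by side, such as *Pcdhb9* between *Pcdhb8* (mean 1.14 RPKM) and *Pcdhb10* (mean 1.37 RPKM). The depth set the precision of these values, with a median of 71.5 reads per beta gene and sample, against 1490 to 2527 for the Pcdha locus and 5758 to 9547 for the Pcdhg locus. In all 22 beta genes, the exact 95% Poisson intervals of the replicates overlapped, in WT and in KI. KI replicate 1 was the lowest sample in 11 of the 22 genes, and WT replicate 2 the highest in 10. KI replicate 1 was also the sample with the high choroid plexus markers, the highest oligodendrocyte sum and the lowest *Wfs1*. The part of tissue content in the beta values was not tested.

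No clustered protocadherin passed the test between KI and WT. Of the 24 listed members, 22 were tested by limma on log2(RPKM + 1), namely both loci and 20 beta genes. Calls required 1.2-fold or more in either direction with an adjusted p below 0.1. They were made for 0 members, and for 0 of all 18436 genes tested (0%). At an unadjusted p under 0.05 there were 0 members, where 9.62% of all genes passed. By limma voom on the whole reads worked out from the RPKM, 1.51% of all genes were called (211 higher and 67 lower in KI), again with 0 members, and 1 member (*Pcdhb7*) had an unadjusted p under 0.05. The smallest adjusted p of a member was 0.610 by limma and 0.412 by voom, both for *Pcdhb7*.

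Most fitted differences had the same sign. On the log2(RPKM + 1) scale they ran from -0.26 to 0.08 with a median of -0.07, beside a median of 0.01 over all genes tested. This scale understates the fold of genes near 1 RPKM, where most beta genes lie. By voom, on reads without the added 1, the lowest log2 difference was -0.36, the highest 0.20 and the median -0.10, and 18 of 22 were again below 0. Of the 22 members, 18 had a lower fitted level in KI, beside 45.6% of all genes. Members share samples, and their signs are not independent of each other. Without KI replicate 1, 13 of the 22 were lower, and without KI replicate 2, 20 were. Both KI samples lay below both WT samples in 5 members, *Pcdhb7*, *Pcdhb14*, *Pcdhb17*, *Pcdhb22* and the Pcdhg locus, beside 18.1% of all genes. Both lay above in 0 members, beside 24.0% of all genes.

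*Pcdhb7* and *Pcdhb14* had the lowest fitted differences by either fit. *Pcdhb7* stood at 2.85 and 3.005 RPKM in WT and 1.90 and 2.69 RPKM in KI. Both KI values were below WT, though KI replicate 1 carried most of the gap. Its log2(RPKM + 1) difference was -0.26 (SE 0.14, limma adjusted p = 0.610), and voom gave -0.36. *Pcdhb14* stood at 2.04 and 2.87 RPKM in WT and 1.96 and 1.75 RPKM in KI. Here WT replicate 2, the library with the fewest reads, was far above the rest. Its log2(RPKM + 1) difference was -0.26 (SE 0.15, limma adjusted p = 0.623), and voom gave -0.34. For *Pcdhb17*, whose levels are given above, the difference was -0.15 (SE 0.09, limma adjusted p = 0.644).

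The loci gave the tightest estimates. For the Pcdhg locus the log2 difference was -0.06, with a 95% interval from -0.19 to 0.07 (limma adjusted p = 0.734). For the Pcdha locus it was -0.03, with an interval from -0.21 to 0.14 (limma adjusted p = 0.911). The voom intervals, which bound the fold itself, ran from -0.15 to 0.03 for the Pcdhg locus and from -0.16 to 0.08 for the Pcdha locus, inside 1.2-fold in either direction. The beta genes were bounded less tightly. By voom, 12 of the 22 members had an interval inside 1.5-fold either way. For *Pcdhb4*, one of the lowest tested, it ran from -0.91 to 0.43 around -0.24. Smaller changes in single beta genes, or changes of single alpha and gamma isoforms that offset each other, were not detectable in these values. For *Pcdhb9*, the second-highest beta gene, the log2 difference was -0.07, with an interval from -0.37 to 0.24, and it turned to 0.06 without WT replicate 2.

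**Figure D3:**
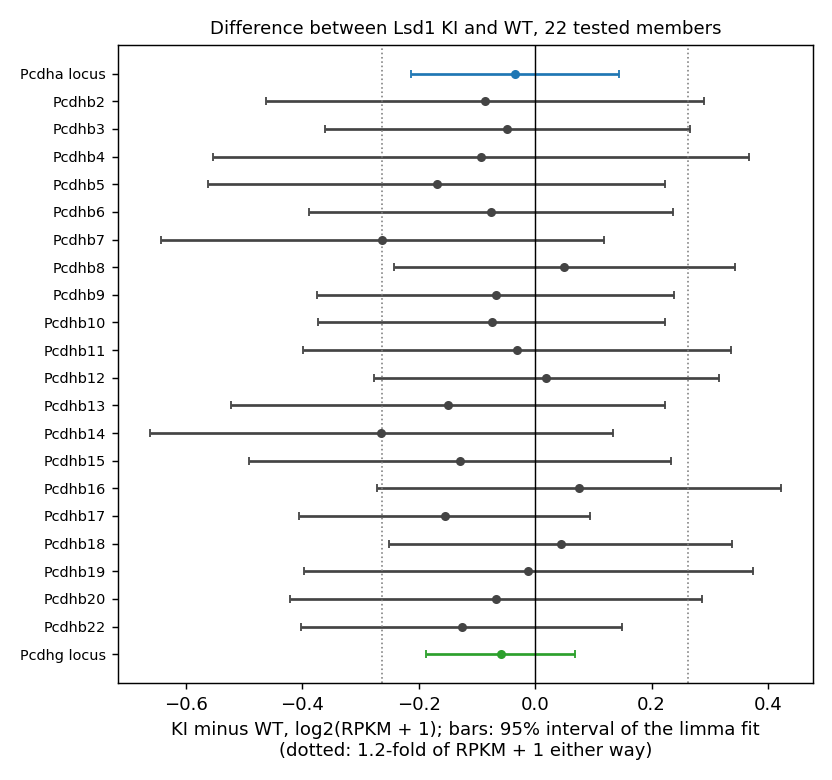
Difference between KI and WT on the log2(RPKM + 1) scale (horizontal axis) for the 22 tested members; points are limma estimates, bars 95% intervals, dotted lines 1.2-fold of RPKM + 1 either way, and the scale understates the fold of low genes. All bars cross 0, 18 points lie left of it, and the 2 loci have the shortest bars.

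Genes that act on the clusters, or beside them, also gave no call, but the log2(RPKM + 1) fit called 0 of all 18436 genes. By voom, which called 1.51% of all genes, 0 genes were called in each of the lists below. Over all genes, 45.6% had a lower fitted level in KI. Both KI samples lay below both WT samples in 18.1% and above in 24.0%. Genes of a list share samples, and their counts were not tested against these shares. The log2 differences of the lists are on the log2(RPKM + 1) scale, which sets low genes lower in each order of size. Among 25 tested regulators of the clusters (of 26 chosen), 0 were called, 18 had a lower fitted level in KI and the median log2 difference was -0.05. In 11 of the 25, both KI samples lay below both WT samples, and in 1 above. *Nipbl*, which loads cohesin, had the largest difference, -0.20 (5.95 and 5.51 RPKM in WT, 5.21 and 4.54 RPKM in KI; limma adjusted p = 0.567). *Smc3*, a cohesin subunit, followed with -0.16 (limma adjusted p = 0.516), while by voom the low gene *Rest* (0.18) came second. *Nipbl* and *Smc3* were lower in both KI samples, the groups of *Rest* overlapped, and none of them passed. *Ctcf*, which binds the promoters and enhancers of the clusters, stood at 18.04 and 18.8 RPKM in WT and 15.1 and 18.1 RPKM in KI, and its groups overlapped.

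Of 18 intracellular partners and processing enzymes, 0 were called, 13 were lower in KI and the median was -0.06. In 10 of the 18, both KI samples lay below both WT samples, and in 3 above. *Ret*, a receptor tyrosine kinase that associates with protocadherins, had the largest difference, 0.27 (0.487 and 0.525 RPKM in WT, 0.881 and 0.756 RPKM in KI; limma adjusted p = 0.558). As *Ret* is low, the voom difference was larger, 0.69 (voom adjusted p = 0.141). *Nlgn1*, a postsynaptic adhesion protein that binds gamma protocadherins, had -0.16 (limma adjusted p = 0.520). *Prkca*, which encodes the kinase whose LSD1 site the KI mice lack, stood at 44.0 and 40.9 RPKM in WT and 48.6 and 42.1 RPKM in KI, with overlapping groups.

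The non-clustered protocadherins, related adhesion genes that each have their own promoter, had 0 calls among 10 tested of 12, with 6 lower in KI. Both KI samples were under both WT samples in 2 of the 10 and over them in 1. The largest differences on this scale were those of *Pcdh20* (27.6 and 26.5 RPKM in WT, 23.7 and 24.0 RPKM in KI; log2 difference -0.17, limma adjusted p = 0.469) and *Pcdh8* (-0.10, limma adjusted p = 0.701). By voom the low gene *Pcdh11x* (0.19) was level with *Pcdh20* (-0.18) in size. Among 33 protein-coding neighbours that start within 500 kb of the clusters or between them, 24 were tested, 0 were called and 11 were lower in KI, with a median of 0.02. The neighbours include *Pcdh1*, which was tested, and *Pcdh12*, which was not, and both are also counted among the non-clustered protocadherins. For 4 of the 24, both KI samples were under both WT samples, and for 8 over them. *Taf7*, which encodes a subunit of the general transcription factor TFIID, and *Dnd1*, which encodes an RNA-binding protein of germ cells, had the largest differences (0.27 and -0.22, limma adjusted p = 0.490 and 0.680). By voom the order turned, with -0.61 for *Dnd1*, which is under 1 RPKM, and 0.39 for *Taf7*. The neighbours thus had a median on the other side of 0 from the clustered members, but the difference between lists was not tested.

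**Figure D4:**
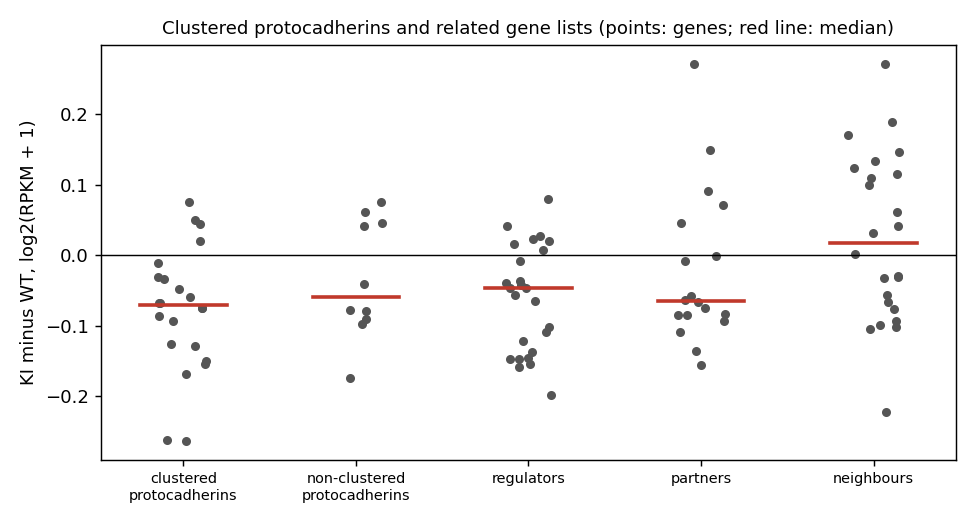
Difference between KI and WT on the log2(RPKM + 1) scale (vertical axis) for the tested genes of each list; points are genes, spread sideways for sight only, and red lines are medians. The medians run from -0.07 for the clustered protocadherins to 0.02 for the neighbours, within the spread of the genes of each list.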

How the data were processed

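The authors isolated poly(A) RNA from hippocampus, sequenced paired ends and used GSNAP for alignment to mm10. Pairs that mapped properly and to 1 place were counted over the genes of Ensembl release 74. The library kit does not mark strand. The values the authors deposited are RPKM, 1 file per sample, with genes without reads left out. Such genes were set to 0. Members and lists were chosen with earlier results of these data known.

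RPKM values are not counts, so the main test was limma (3.58.1, R 4.3.3) with its mean-variance trend on log2(RPKM + 1), over the 18436 genes that reached 0.5 RPKM in 2 or more samples, with Benjamini-Hochberg adjustment over all of them. A call needed an adjusted p under 0.1 and 1.2-fold. The added pseudocount of 1 understates the changes of low genes. Mapped reads per sample, and an exon length per gene, were worked out as the numbers at which the values of a gene become whole reads in all samples (tolerance 1e-06), which succeeded for 26327 of 26328 genes (99.9962%). The true length may be a multiple of the one found. These reads served for the Poisson intervals, for reads per library total and for limma voom, an alternative chosen after seeing the data. Cluster sums were compared by exact permutation. Gene positions are those of GENCODE M21 (GRCm38). Other steps used scipy 1.17.1, numpy 2.4.6 and pandas 2.3.3 (Python 3.11.15), and the fit and the read recovery were tested on simulated data. The pass mark for the fit was set with more samples a group than here and on large changes. It does not show what the fit finds with 2 samples a group.

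Named members were the 2 highest and 2 lowest of each measured group, every called member, and the 3 largest falls and rises among members whose groups do not overlap. *Pcdhb20*, *Pcdhb22* and the other beta genes given by their means were named after their values were seen, as were *Ctcf*, *Rest*, *Prkca*, *Pcdh11x* and the marker genes. Each other list was given by counts and its 2 largest differences. The replicates of a group differed by more than sampling noise (chi-square per degree of freedom 1.72 in WT and 3.24 in KI). This does not show whether they came from separate animals. Each was counted as its own sample, as labelled. No sequence of the members is printed here.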

Additional observations from a re-analysis of the deposited data

How the results depend on the processing

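No member was called under any setting run, which were a pseudocount of 0.1, no filter on low values, quantile normalization, a common median, no mean-variance trend, 1.5-fold, each replicate left out and, chosen after seeing the data, limma voom. Only 2 of these settings called any gene at all (20 genes without the trend, 278 by voom), so under the others no member could have changed side and their 0 says nothing of stability. Leaving out a replicate leaves 1 sample in a group, which is assumed to vary like the other group. Replicate numbers were shared by the groups, and deviations of same-numbered samples correlated at -0.02 over 18436 genes. With 2 samples a group, this cannot show whether same-numbered samples shared a litter or a preparation. With the replicate block, 0 members were called, and the adjusted p of *Pcdhb7* was 0.663.

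In 83 repeats of the reported values, direction and side of the threshold were kept. Part of these could not have differed. The side could not change where no gene was called, and the replicate block leaves each log2 difference as it is. The tally is therefore no measure of stability. The 3 repeats that reversed were the Pcdha locus without WT replicate 1 (log2 difference 0.0034, log2 ratio of levels 0.0040) and *Pcdhb9* without WT replicate 2 (0.059). With 1 replicate left out, the differences ran from -0.072 to 0.0034 for the Pcdha locus and from -0.19 to 0.059 for *Pcdhb9*. Leaving out 1 replicate gave log2 ratios from -0.082 to 0.0040 for alpha, -0.23 to -0.06 for beta and -0.08 to -0.04 for gamma. The cause was not tested. Of the 22 members, 13 to 20 were lower in KI when 1 replicate was left out, 21 under quantile normalization and 19 under a common median, where 53.1% and 55.1% of all genes were lower. The repeat without C-type members was not run, since they have no values of their own. With 2 samples a group and a median of 71.5 reads per beta gene, small changes could not be seen.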
